A study of Homo sapiens with 6 samples.

Results

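The E2F-driven replication genes examined here are 10 genes that a cell switches on as it enters S phase: the helicase subunit genes MCM2, MCM3, MCM4, MCM5, MCM6 and MCM7, the helicase loader CDC6, the G1/S cyclin CCNE1, the sliding clamp PCNA and the nucleotide synthesis gene RRM2. They were chosen by name, and their accessible chromatin was taken as all ATAC-seq peaks whose nearest edge lay within 2 kb of the hg19 start site of the gene, and then within 100 kb. The narrower window held 11 accessible regions and the wider one 48, of 21031 regions in the whole series. A region is a set of peaks that overlap by at least 1 bp within or across conditions.

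The E2F transcription factors bind the promoters of cell cycle genes, and the retinoblastoma protein RB binds E2F and represses those promoters in cells that are not cycling. Cyclin-dependent kinases, the cyclin E kinase among them, phosphorylate RB and so release E2F. The genes that follow include those for licensing of origins (CDC6 and the MCM complex), for the replication fork (PCNA) and for the supply of deoxynucleotides (RRM2).

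ATAC-seq, in which a transposase inserts adapters into open DNA, was run on LNCaP, an established androgen-sensitive human prostate cancer cell line. Isogenic lines expressed either shCON, the control hairpin, or shRB, which targets RB. The 6 libraries form 3 groups of 2, namely shCON cells kept for 72 hours in CDT, the hormone-deficient condition, shCON cells kept in CDT for 72 hours and given DHT, an androgen, for 3 hours, and shRB cells kept for 72 hours in CDT. No shRB group with DHT was analysed here, and no label says whether the replicates of a group were separate cultures or whether a line was 1 clone.

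Each group is represented by 1 peak list that pools both of its replicates, so replicate error cannot be estimated for any difference below and no test was run. There were 12096 peaks for shCON CDT, 12896 for shCON DHT and 14788 for shRB CDT. Depth is unknown. A peak that is not listed did not pass the authors' threshold, which is not a measurement of closed chromatin. Peaks carry the authors' score, which ran from 413 to a cap of 1000. How the score was computed is not stated, so most promoter scores are given with the percentage of the same list that scored lower. Distal scores mostly lack that percentage and are not ranked between lists. A peak at the cap outscored 67.5% of shCON CDT, 73.0% of shCON DHT and 64.9% of shRB CDT peaks. The peak lists do not measure the RB protein or the prostate identity of the cells, and neither was checked here.

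Promoter sequences of the genes are shown before their peaks. RefSeq windows from 250 bases before to 50 after the start (build GRCh38.p14) were found for 8 of the 10 genes. No window was found for MCM4 and MCM5. The 5 windows printed cover the range of promoter results described below: MCM2 was missing from 1 list, MCM6 was below the list median in both control lists and above it in shRB CDT, CDC6 and PCNA stood at or near the cap throughout, and CCNE1 was at the cap without a match. They are MCM2 at chr3:127598161-127598460 (plus strand), MCM6 at chr2:135876394-135876693 (minus strand), CDC6 at chr17:40287629-40287928 (plus strand), PCNA at chr20:5126573-5126872 (minus strand) and CCNE1 at chr19:29811741-29812040 (plus strand). Capitals mark each match, on either strand, to the E2F letters TTTCCCGC, TTTCGCGC, TTTGCCGC or TTTGGCGC.
MCM2: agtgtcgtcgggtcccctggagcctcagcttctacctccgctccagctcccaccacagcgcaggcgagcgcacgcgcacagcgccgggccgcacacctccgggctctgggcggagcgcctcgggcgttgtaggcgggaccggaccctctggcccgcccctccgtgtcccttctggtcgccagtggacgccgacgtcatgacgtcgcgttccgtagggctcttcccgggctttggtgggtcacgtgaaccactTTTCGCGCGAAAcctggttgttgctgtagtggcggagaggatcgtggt
MCM6: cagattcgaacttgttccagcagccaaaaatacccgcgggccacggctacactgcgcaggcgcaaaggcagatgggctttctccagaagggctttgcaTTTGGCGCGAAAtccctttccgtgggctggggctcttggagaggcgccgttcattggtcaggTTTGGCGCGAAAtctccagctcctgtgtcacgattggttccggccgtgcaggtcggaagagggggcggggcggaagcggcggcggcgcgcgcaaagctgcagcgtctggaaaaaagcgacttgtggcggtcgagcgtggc
CDC6: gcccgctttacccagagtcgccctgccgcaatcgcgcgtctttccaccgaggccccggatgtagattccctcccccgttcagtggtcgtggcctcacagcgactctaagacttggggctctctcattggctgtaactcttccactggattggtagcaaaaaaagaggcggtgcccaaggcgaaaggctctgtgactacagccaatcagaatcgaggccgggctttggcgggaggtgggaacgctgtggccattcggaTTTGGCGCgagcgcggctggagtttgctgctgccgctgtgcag
PCNA: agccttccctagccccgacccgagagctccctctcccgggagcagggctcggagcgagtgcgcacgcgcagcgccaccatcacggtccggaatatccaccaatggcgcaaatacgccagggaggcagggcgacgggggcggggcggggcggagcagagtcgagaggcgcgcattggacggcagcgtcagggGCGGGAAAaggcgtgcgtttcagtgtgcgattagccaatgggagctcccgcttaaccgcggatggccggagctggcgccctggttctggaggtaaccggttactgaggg
CCNE1: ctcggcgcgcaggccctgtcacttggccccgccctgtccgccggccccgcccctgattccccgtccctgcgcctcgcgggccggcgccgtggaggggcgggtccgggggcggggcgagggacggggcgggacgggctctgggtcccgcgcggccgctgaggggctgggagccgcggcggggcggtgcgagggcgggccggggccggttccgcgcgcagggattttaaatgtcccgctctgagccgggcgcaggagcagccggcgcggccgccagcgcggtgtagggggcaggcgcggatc

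An E2F match was present in the first listed window of 6 of the 8 genes with a sequence (75.0%), against 3.31% of all 35116 RefSeq windows of this length and 4.44% of the first windows of protein-coding genes, the like-for-like set. The genes were picked as E2F targets, so this share is a description of that choice. Counting the first transcribed base as position 0, the MCM2 matches ran from 2 to 13, where TTTCGCGC read on both strands overlaps itself to TTTCGCGCGAAA. The CDC6 match ran from 7 to 14. The CDC6 window also reads TTTGGCGG upstream of the start, which is outside the letters searched and so is not marked. MCM3 had matches from -174 to -167 and from -4 to 3, and MCM7 from -187 to -180 and from -9 to -2. In MCM6, 2 copies of TTTGGCGCGAAA, from -152 to -141 and from -90 to -79, each held overlapping matches on both strands. The PCNA match lay at -59 to -52 and overlapped a GC box. CCNE1 and RRM2 had no E2F match in these letters. Further windows listed for MCM7 (2), PCNA (1) and RRM2 (1) held none either. The hg19 starts used for the peaks were not matched to single RefSeq starts, so these positions are not placed inside the peaks.

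The CCAAT box, CCAAT, was searched on both strands and found in 6 of the 8 windows (75.0%, against 34.6% of all windows and 36.4% of the first windows of protein-coding genes). MCM3, MCM7, CDC6, PCNA and RRM2 had 3 sites each, MCM6 had 2, and MCM2 and CCNE1 had none. The GC box GGGCGG was in 5 of 8 (62.5%, against 45.0% of all windows and 58.5% of the first windows), close to the latter share, with 7 sites in CCNE1. The cell cycle homology region, searched as TTTGAA and TTCGAA, was in MCM6 only among the members (12.5%, against 16.4% of all windows and 13.5% of the first windows). Of 36 other genes of the replication pathway, such as ORC1, GINS1, FEN1, TYMS and RRM1, 30 had a window. Of these, 11 (36.7%) held an E2F match, 15 a CCAAT box and 23 (76.7%) a GC box. No hg19 positions were at hand for those genes, so their peaks were not analysed here.

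All 10 start sites lay inside a listed peak in RB-depleted cells, 9 of 10 in hormone-deprived control cells and 8 of 10 in control cells given DHT. The shares of all regions with a peak were 69.1%, 55.9% and 58.3% in that order, and the shRB CDT list was the longest. The 8 genes with a promoter peak in every condition were MCM3, MCM4, MCM6, MCM7, CDC6, PCNA, CCNE1 and RRM2. The exceptions were both helicase subunits: MCM5 was listed in shRB CDT alone, and MCM2 was missing from shCON DHT. Among all regions of the series, 34.0% had a peak in all 3 lists, a background that includes many sites away from promoters. Between shRB CDT and shCON CDT, 2 of the 11 promoter regions were listed in shRB CDT only, against 33.7% of all regions in either list, and none in shCON CDT only, against 18.1%. Between shCON DHT and shCON CDT, none of 9 promoter regions was listed in shCON DHT only, against 27.9%, and 1 was in shCON CDT only, against 24.8%. Between shRB CDT and shCON DHT, 3 of 11 were in shRB CDT only, against 33.4%, and none in shCON DHT only, against 21.0%. These comparisons share lists with each other.

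**Figure D1:**
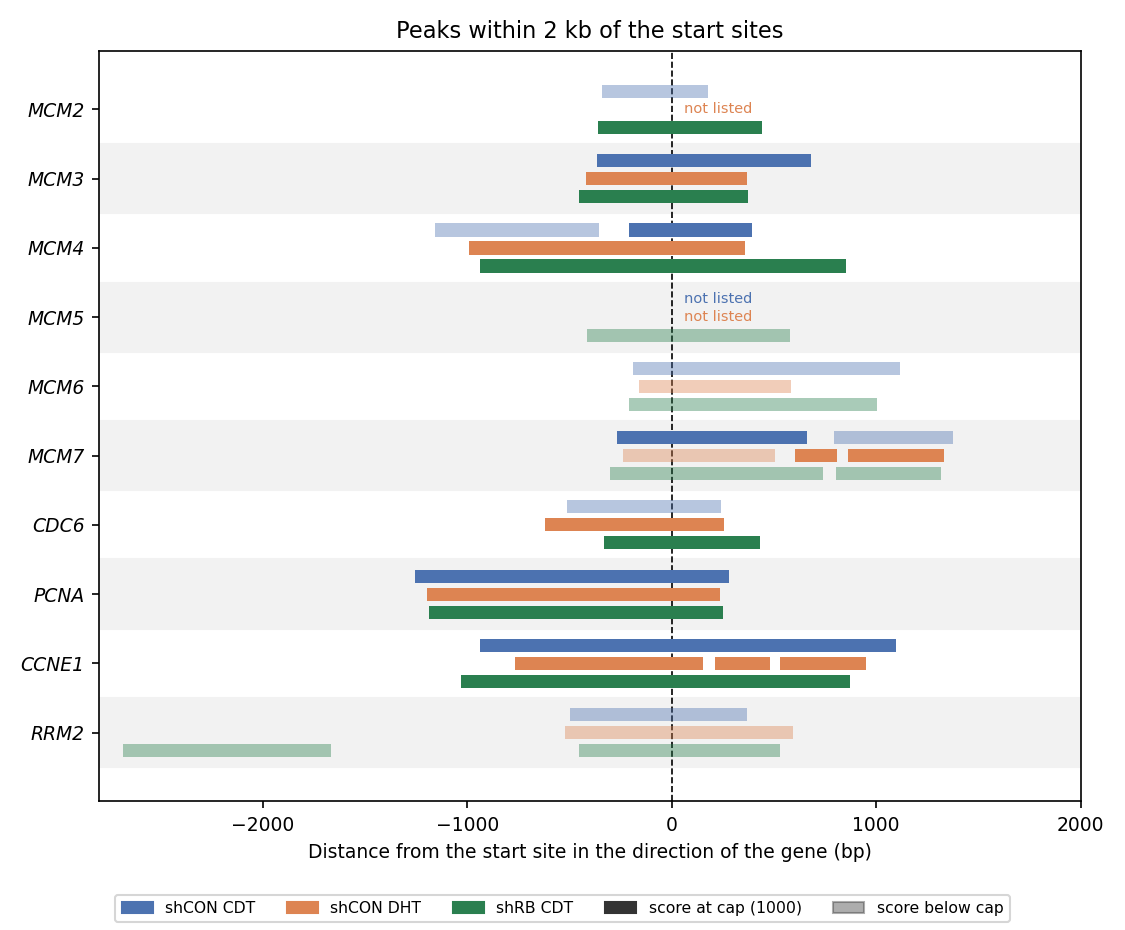
Peaks within 2 kb of the 10 start sites, drawn to scale by distance from the start site in bp in the direction of the gene, for the 3 peak lists. Full colour marks peaks at the score cap of 1000 and pale colour those below it. A peak covers the start site in 27 of the 30 gene and list combinations; the missing ones are MCM2 in shCON DHT and MCM5 in both control lists.

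MCM5, a subunit of the MCM2-7 helicase ring, was the only gene of the 10 whose promoter was absent from both control lists. In shRB CDT a 992 bp peak at chr22:35795701-35796692 reached from 415 bp upstream to 576 bp downstream of the start and scored 921, above 59.9% of that list. The nearest listed peak to the MCM5 start was 27.6 kb upstream in shCON CDT and 71.7 kb upstream in shCON DHT. The shRB CDT peak stood above the median of its list. Of the 991 shRB CDT peaks within 50 score points of it, 125 (12.6%, exact 95% binomial interval 10.6 to 14.8) had no peak in either control list, so this pattern occurred at other well-scored sites too.

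MCM2, another ring subunit, had a 522 bp peak in shCON CDT (chr3:127316857-127317378) that scored 544, above 26.0% of its list. In shCON DHT no peak lay nearer than 7.08 kb. In shRB CDT the MCM2 peak was 801 bp wide, stood at the cap of 1000 and reached 441 bp downstream of the start, against 178 bp in shCON CDT. MCM2 was low in its list or missing in both control conditions and at the cap with RB depleted. Read from shRB CDT, its absence from shCON DHT was infrequent, since 6.68% (6.02 to 7.40) of all shRB CDT peaks at the cap had no counterpart there. Read from shCON CDT it was the more common outcome: of the 1819 shCON CDT peaks within 50 score points of the MCM2 peak, 1100 (60.5%, 58.2 to 62.7) had no shCON DHT peak.

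MCM6 was listed in every condition, with its highest rank also in shRB CDT. It scored 615 in shCON CDT and 507 in shCON DHT, above 35.4% and 23.7% of those lists, and 818 in shRB CDT, above 52.5%. Its width was 1309 bp in shCON CDT and 1211 bp in shRB CDT, and 741 bp in shCON DHT. By the highest peak within 2 kb, MCM2, MCM5 and MCM6 were below the median score or not listed in each control list, and the other 7 members were at or above it. By the same measure all 10 were at or above the median of 784 in shRB CDT, MCM7 through a peak 803 bp downstream of its start. Across the series, regions with a peak in every list were also most often at the cap in shRB CDT. The shares were 64.8% there, 51.6% in shCON CDT and 45.8% in shCON DHT. How many of those regions lay above each list median was not worked out. Whether MCM2, MCM5 and MCM6 rose more than other regions was therefore not tested. Counting only the peak over the start, 9 members were at or above the median in shRB CDT and 7 in each control list, and the shRB CDT peak below it was that of MCM7.

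The other ring subunits did not share this order. MCM3 stood at the cap in all 3 lists, as did MCM4. MCM7 went the other way, at the cap in shCON CDT and shCON DHT and at 800 in shRB CDT, above 51.1% of that list. The MCM7 peak over the start itself scored 1000 in shCON CDT, above 67.5% of that list. It scored 733 in shCON DHT, above 54.0%, and 717 in shRB CDT, above 44.6%. The capped MCM7 peaks of shCON DHT lay 603 bp or more downstream. In the RefSeq table AP4M1 starts within 2 kb of MCM7 on the opposite strand, and PRKDC is known to diverge from the MCM4 promoter. The table also places starts on the opposite strand within 2 kb of MCM2 (TPRA1) and of PCNA (CDS2). The promoter peaks of MCM2, MCM4, MCM7 and PCNA therefore cannot be assigned to 1 of the neighbours. MCM5 had no RefSeq window, so starts near it were not looked up.

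CDC6, which loads the helicase onto origins, scored 981 in shCON CDT and 1000 in the other lists. CCNE1, which encodes cyclin E1, was at the cap in every list. PCNA, the clamp that holds DNA polymerase on its template, was at the cap in every list as well. RRM2, the small subunit of ribonucleotide reductase, scored 898 in shCON CDT and 956 in shRB CDT, above 60.8% and 62.1% of those lists, and 790 in shCON DHT, above 59.0%. None of these 4 genes fell below the median score of any list. Of the 8 promoters listed everywhere, shCON DHT had 6 at the cap and each CDT list 5, by the highest peak within 2 kb. MCM7 counts among the 6 only through peaks downstream of its start, since its peak over the start scored 733. Over all regions common to the 3 lists the shares at the cap were 45.8% in shCON DHT, 51.6% in shCON CDT and 64.8% in shRB CDT. At the cap in every list were 4 of the 8 (MCM3, MCM4, PCNA and CCNE1), against 32.5% of common regions.

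**Figure D2:**
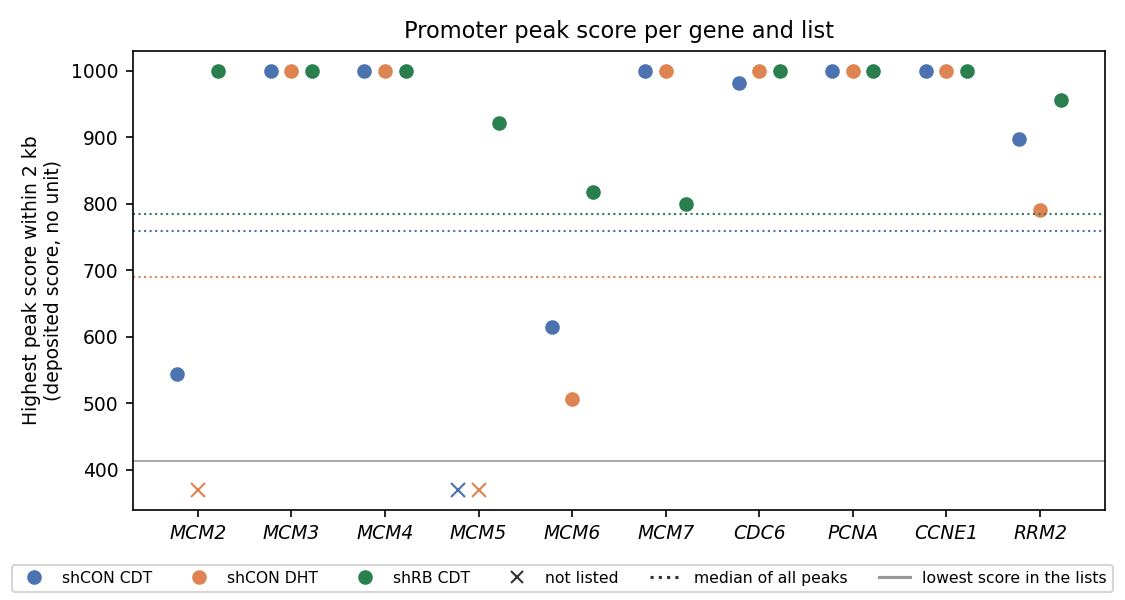
Highest deposited peak score within 2 kb of each start site (vertical axis, no unit) for the 10 genes and 3 lists, with crosses for promoters that are not listed. Dotted lines give the median score of each whole list and the grey line the lowest score. MCM2, MCM5 and MCM6 lie below the medians or are not listed in the control lists, and all 10 shRB CDT points lie above the shRB CDT median of 784. The same count was not made for other regions of the series.

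RRM2 had a second peak within 2 kb in shRB CDT only. It was 1018 bp wide, lay at chr2:10260052-10261069 with its near edge 1.67 kb upstream of the start, and scored 932, above 60.6% of the list. It was the outermost peak inside the 2 kb limit, and the next peak outside that limit lay 6.31 kb from the PCNA start in shCON DHT with a score of 761. At 100 kb, the outermost peak inside lay 99.8 kb from the MCM5 start in shCON DHT (score 1000) and the next one outside 109 kb from the MCM6 start in shRB CDT (score 586).

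The lists also divided some promoters differently. CCNE1 was covered by 1 peak of 2031 bp in shCON CDT and 1 of 1902 bp in shRB CDT, and by 3 peaks of 919, 268 and 420 bp in shCON DHT, all at the cap. MCM7 had 3 peaks in shCON DHT and 2 in either CDT list. MCM4 had 2 peaks in shCON CDT, of 805 and 598 bp, where shCON DHT had 1 of 1353 bp and shRB CDT 1 of 1791 bp. Of the 8 common promoters, each shCON list split 2 into 2 or more peaks and shRB CDT split 1, against 2.94% of all common regions in shRB CDT, 3.72% in shCON CDT and 7.25% in shCON DHT. The PCNA peak lay mostly upstream of the start in each list, from 1254 bp upstream to 277 bp downstream in shCON CDT, and the MCM6 peak mostly downstream, from 191 bp upstream to 1117 bp downstream.

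Summed over the peaks within 2 kb, promoter width in shRB CDT was a median of 1.01 times that in shCON CDT over the 9 genes listed in both, and larger for 5 of them. The quartiles of this ratio were 0.936 and 1.28. Over the 6240 regions that each list covers with 1 peak, the median was 1.04 (quartiles 0.910 and 1.22). RRM2 was the widest in comparison at 2.32 times, which includes its extra upstream peak, followed by MCM2 at 1.53 and MCM4 at 1.28. MCM3 was the narrowest at 0.792 times. In shCON DHT the median width ratio to shCON CDT was 0.934 over 8 genes, with 2 above 1, against 0.896 (0.733 to 1.06) over the single-peak regions. MCM6 had the lowest of these ratios at 0.566 and RRM2 the highest at 1.29. The single-peak regions do not sum peaks as the promoter widths do. With only the peak nearest the start, the median ratio to shCON CDT was 0.866 in shCON DHT and 1.01 in shRB CDT.

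**Figure D3:**
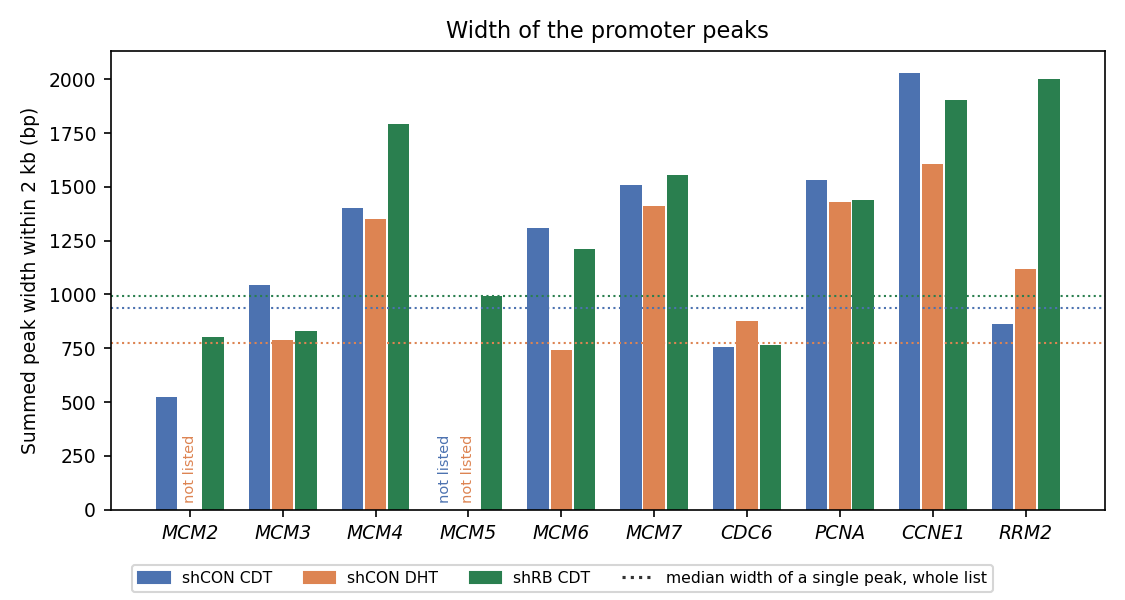
Summed width in bp of the peaks within 2 kb of each start site, for the 10 genes and 3 lists; dotted lines give the median width of a single peak in each whole list. CCNE1 is the widest promoter in both control lists, at 2031 and 1607 bp, and RRM2 in shRB CDT, at 2001 bp, where its upstream peak adds 1018 bp.

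Within 100 kb of the 10 start sites, promoters included, lay 36 peaks of shCON CDT, 32 of shCON DHT and 45 of shRB CDT. The ratio of shRB CDT to shCON CDT was 1.25 (exact conditional binomial 95% interval 0.789 to 1.99), next to 1.22 for the whole lists. The ratio of shCON DHT to shCON CDT was 0.889 (0.534 to 1.47), next to 1.07 for the whole lists. Among the better-scored 50% of each list this order turned, with 23 peaks in shCON DHT and 19 in shCON CDT. These intervals include 1 and cover counting error only, so no difference in number was detectable at this size. Other genes lie in these windows, and no distal peak can be assigned to a member from these data.

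The windows differed more from gene to gene. MCM7 had 9 peaks in shCON DHT, 9 in shRB CDT and 7 in shCON CDT, and CDC6 had 5, 7 and 6 in that order. MCM3 and MCM6 each had 2 peaks in shRB CDT, and in both control lists their promoter was the only peak within 100 kb. MCM2 went from 3 peaks in shCON CDT and 2 in shCON DHT to 7 in shRB CDT, the widest step of the 10. Of the 7, 2 were short neighbouring peaks of 181 and 202 bp, 81.0 and 81.3 kb downstream, which both scored 576. Only PCNA and RRM2 had fewer peaks in shRB CDT than in shCON CDT, with 2 against 3 and 4 against 5.

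**Figure D4:**
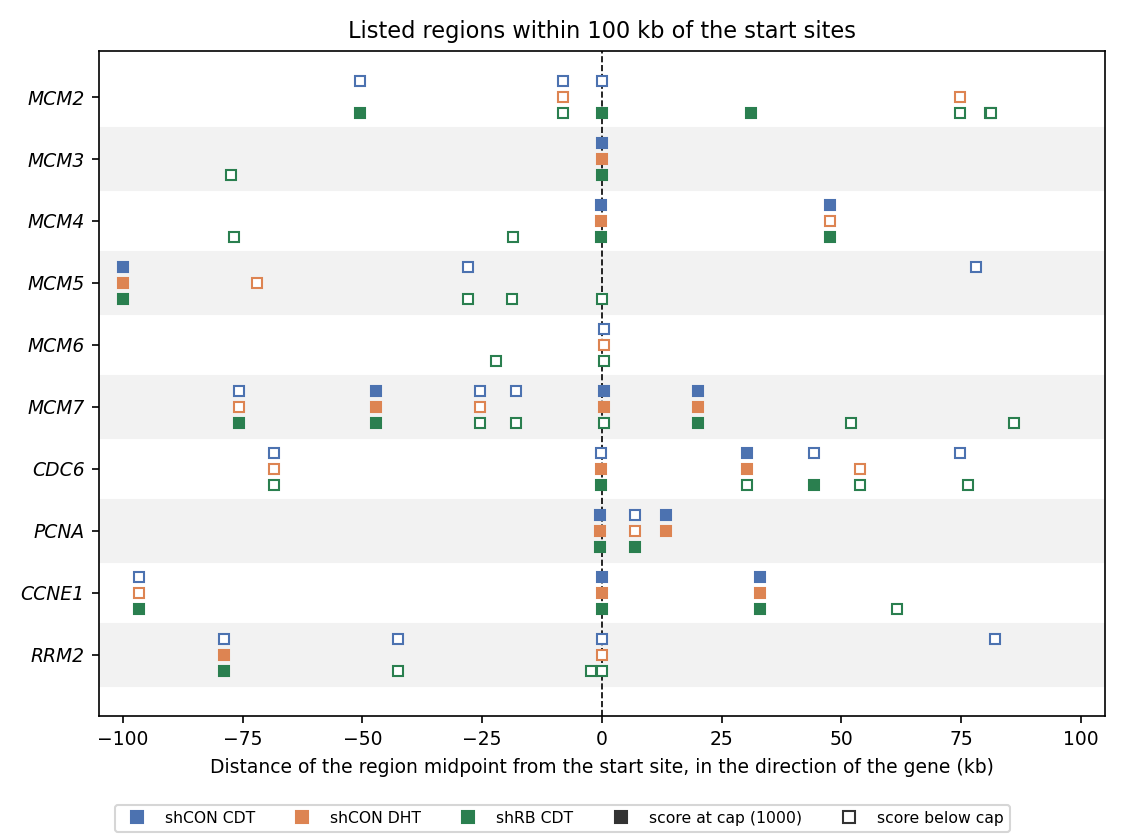
Regions within 100 kb of the 10 start sites, placed by the distance of their midpoint from the start in kb in the direction of the gene, with 1 square for each list that has a peak in the region. Filled squares are at the score cap of 1000 and open squares below it. MCM3 and MCM6 have no other region in the control lists, and PCNA has a capped region 13.5 kb downstream in both control lists that shRB CDT lacks.

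Of the 37 regions between 2 and 100 kb, 32 had a peak in shRB CDT, 22 in shCON CDT and 17 in shCON DHT. Their distances are given to the midpoint of the region. Among all regions of the series 69.1% had a shRB CDT peak, 55.9% a shCON CDT peak and 58.3% a shCON DHT peak. Regions of shRB CDT alone numbered 12 (32.4%, 18.0 to 49.8), against 22.5% of all regions, and lay around 8 of the 10 genes. Their scores were mostly low: 11 of the 12 fell below the list median, with a range from 455 to 1000. Low scores were also usual for this class across the series. It held 4737 regions of shRB CDT alone, and 1494 with only the better-scored 50% of each list kept. The exact share of the 4737 below the median was not worked out. The 12 count the 2 short neighbouring peaks downstream of MCM2 as separate regions. Regions of shCON CDT alone numbered 3, near MCM5, CDC6 and RRM2, with scores from 439 to 505. The 1 region of shCON DHT alone was 72.1 kb upstream of MCM5 and scored 567. Within 100 kb as a whole, promoters included, shCON DHT alone held 1 of 48 regions (2.08%, 0.053 to 11.1), against 15.7% of all regions. That share was 16.2% against 19.9% when only peaks with a 50% reciprocal overlap were joined. Regions of all 3 lists made up 43.8% (29.5 to 58.8) of the 48, next to 34.0%, and 35.1% (20.2 to 52.5) of the 37 away from promoters.

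**Figure D5:**
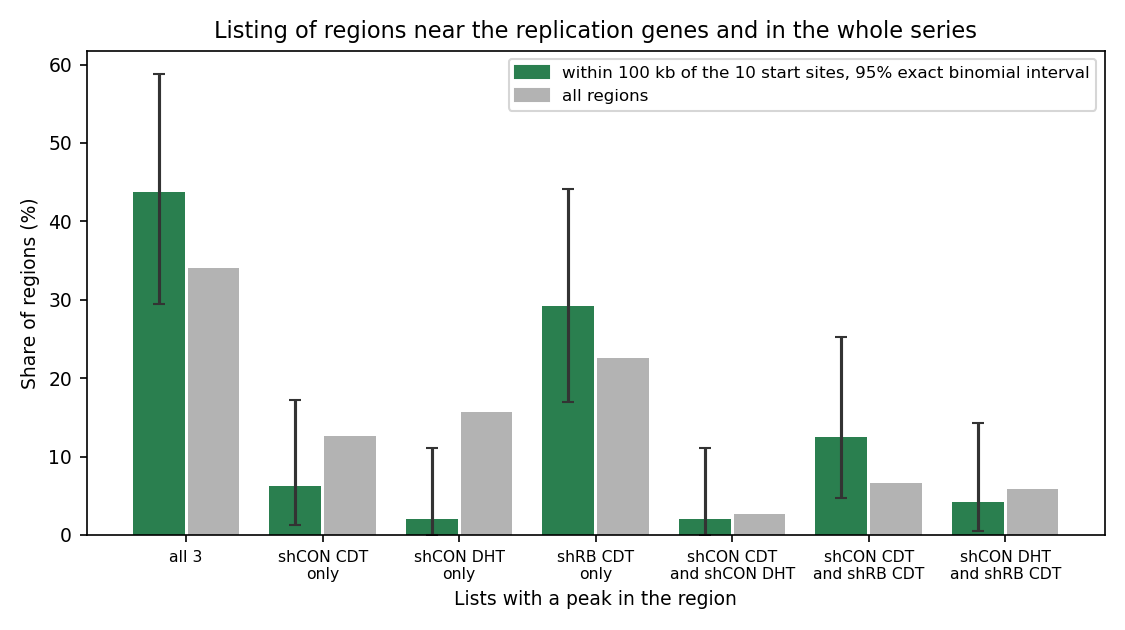
Share of regions in percent by the lists that have a peak in them, for the 48 regions within 100 kb of the 10 start sites (green, with exact 95% binomial intervals) and for all 21031 regions (grey). The intervals include the share of all regions for each class except shCON DHT only, at 2.08% against 15.7%.

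The regions at the cap in 1 list and missing from another numbered 5 of 48 (10.4%), around 3 genes, against 3.47% of all regions. Near MCM2 these were its own promoter, a region at chr3:127266160-127267133, 50.6 kb upstream, with a score of 803 in shCON CDT and 1000 in shRB CDT and no shCON DHT peak, and a region at chr3:127347623-127349043, 31.1 kb downstream, at the cap in shRB CDT and in neither control list. Near CDC6 a region at chr17:38487873-38489079, 44.3 kb downstream, scored 947 in shCON CDT and 1000 in shRB CDT and was missing from shCON DHT. Near PCNA a region at chr20:5093375-5094228, 13.5 kb downstream, was at the cap in both control lists and missing from shRB CDT. Of the 5, 4 were absent from shCON DHT, 1 of these also from shCON CDT, and 1, the PCNA region, from shRB CDT. Of the 730 such regions in the series, 61.6% were missing from shCON DHT, 43.8% from shCON CDT and 15.2% from shRB CDT.

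The nearest region beyond 2 kb differed in its listing among the genes. The closest of all had its midpoint 6.90 kb downstream of the PCNA start and scored 900 in shCON CDT and 761 in shCON DHT, with shRB CDT at the cap. For MCM2 it was 8.04 kb upstream, with scores of 639, 700 and 887 in the same order. For MCM7 it was 17.8 kb upstream, at 708 in shCON CDT and 584 in shRB CDT, and not in shCON DHT. For MCM4, MCM5, MCM6 and MCM3 it was listed in shRB CDT alone, 18.5, 18.8, 22.0 and 77.4 kb upstream, with scores of 764, 477, 458 and 707. CDC6 had its nearest region 30.4 kb downstream, at the cap in both control lists and at 504 in shRB CDT, above 18.7% of that list. The nearest CCNE1 region was 33.0 kb downstream and at the cap in every list. For RRM2 it was 42.6 kb upstream, at 567 in shCON CDT and 588 in shRB CDT, and not in shCON DHT. All 4 genes whose nearest distal region was listed in shRB CDT alone encode helicase subunits, as do most of the members. MCM2 and MCM7, the other subunits, did not share this listing. The 4 scores lay below the shRB CDT median of 784. Regions of shRB CDT alone made up 32.4% of those between 2 and 100 kb and 22.5% of all regions. The difference between the 4 genes and the other members was not tested.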

How the data were processed

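ATAC-seq peaks came from 3 deposited lists, each made by the authors from both libraries of a group. The names of the lists, per the labels, mention an irreproducible discovery rate of 0.1, filtering, merging and scoring. The submitters' processing notes name hg19. The aligner, the peak caller and read shifting were not given in the sources used here. The deposited score per peak was used as the authors gave it, for ranks within 1 list. How it was computed is not stated, and it is capped at 1000. Depth is unknown.

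Start sites were hg19 positions given with the gene list, and coordinates count from 1. Windows and distances of single peaks used the nearest edge of the peak, and distances of regions beyond 2 kb their midpoint. Peaks overlapping by 1 bp were joined into regions with Python 3.11.15, numpy 2.4.6 and scipy 1.17.1, and the code was tested on simulated peaks. Intervals are exact 95% binomial and cover counting error only; neighbouring peaks are not independent. All 10 genes are named, with every region at the cap in 1 list and missing from another and the nearest region beyond 2 kb. Members and lists were chosen with earlier results of these data known. The comparison with peaks of like score and the counts of split promoters were added after seeing the values, as were the counts by the peak over the start. Alternatives were other windows, midpoints, overlaps, score limits and peak widths. Promoter peaks of other genes and cell type markers were not analysed here for want of hg19 positions.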

Additional observations from a re-analysis of the deposited data

How the results depend on the processing

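Of the 75 alternative values for the counts, ratios and shares above, 69 stayed within the limits set. The limits were 1.5 times a count, the interval of a share or count ratio, and the quartiles over genes of a width ratio. These limits are wide. The ratio of shCON DHT to shCON CDT peaks counted as unmoved at 1.21 in the better-scored 50%, against 0.889. The 6 that moved were as follows. Using the better-scored 50% of each list, peaks within 100 kb numbered 19 in shCON CDT and 24 in shRB CDT, and no region (0%) was in shCON DHT only. With a 50 kb window shRB CDT had 28 peaks. With a 50% reciprocal overlap 23.5% of the regions were in all 3 lists (27.9% of all regions of the series in that setting) and 16.2% in shCON DHT only (19.9%). Windows of 1 and 5 kb, midpoints, lists of equal length and peaks of 500 bp changed no promoter's listing. In the better-scored 50% the peaks of MCM2 in shCON CDT and of MCM6 in both control lists dropped out, while all 10 genes had a peak within 2 kb in shRB CDT. That setting cuts at the list median, so this outcome restates the ranks given above and is not a separate check. With lists of equal length the ratio of shRB CDT to shCON CDT peaks was 1.08, and regions of shRB CDT only made up 21.4%, against 15.2% of all regions. No paired analysis was possible because the replicates of a group were deposited as 1 list, which also prevents leaving a replicate out.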
